A study of Homo sapiens with 5 samples.

Results

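The genes described here encode BMP and activin ligands and the proteins that restrain them. They are 10 listed genes out of 20007 protein-coding genes: BMP2, BMP4, BMP6, INHBA and INHBB for the ligands, FST, FSTL1, GREM1 and NOG for secreted binding proteins, and BAMBI for a membrane protein. For each gene, TEAD4 peaks were taken when the summit, the base with the strongest signal, lay in the gene body or within 50 kb of any transcriptional start site (TSS). This gave 24 of the 21113 peaks, at 8 of the 10 genes. The peaks come from chromatin immunoprecipitation followed by sequencing (ChIP-seq) with an anti-TEAD4 antibody in LX-2, an established human hepatic stellate cell line with a myofibroblastic phenotype. All samples had received the solvent DMSO, so there was a single condition, with 3 TEAD4 samples and 2 samples of input chromatin. The one list used here was made by the authors from TEAD4 replicates 1 and 3, the only ones they found concordant enough. It holds a position, a reproducibility score, a signal value and a q-value per peak, and no value per replicate. No spread between replicates can therefore be given for any peak, and the read depth per sample is unknown. A peak list holds no expression values, so the levels of these genes in LX-2 cells were not analysed here.

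BMPs and activins are secreted dimers of the TGF-β superfamily. They bring together type I and type II receptor kinases, which phosphorylate SMAD proteins. BMP and activin receptors use different SMADs. Their range is set largely outside the cell: noggin (NOG) and gremlin 1 (GREM1) hold BMPs away from their receptors, follistatin (FST) does so mainly for activins, and FSTL1 is a secreted glycoprotein with a follistatin-like domain that can bind BMP4. BAMBI resembles a type I receptor but lacks the kinase domain, and it dampens signalling by TGF-β family receptors, a role described in stellate cells. TEAD4 is a DNA-binding factor that recruits the coactivator YAP1. Its family recognises the sequence ACATTCC, called the TEAD motif below.

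Of the 24 peaks, 10 held the TEAD motif no farther than 100 bp from the summit. The sequences around the summit are shown for the 9 of them whose signal value was above the median of the whole list, because they show where the motif stands in the stronger peaks that have it. The other 14 peaks lack it. Each is the plus strand of hg38, and capitals mark the TEAD motif (ACATTCC, or GGAATGT where it lies on the minus strand) and, where present, the AP-1 motif TGAGTCA.
BMP4, 40.5 kb upstream, chr14:53999249-53999294: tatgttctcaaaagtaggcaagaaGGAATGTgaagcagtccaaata
BMP4, 44.1 kb upstream, chr14:54002839-54002889: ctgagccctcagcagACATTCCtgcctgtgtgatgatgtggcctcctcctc
BMP6, 2.9 kb upstream, chr6:7723207-7723255: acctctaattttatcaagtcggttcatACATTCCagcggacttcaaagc
FSTL1, 48.1 kb upstream, chr3:120499110-120499175: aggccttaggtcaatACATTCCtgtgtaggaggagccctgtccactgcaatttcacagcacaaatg
FSTL1, 15.2 kb downstream, chr3:120435707-120435764: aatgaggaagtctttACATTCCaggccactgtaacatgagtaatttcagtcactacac
GREM1, 13.6 kb upstream, chr15:32704315-32704386: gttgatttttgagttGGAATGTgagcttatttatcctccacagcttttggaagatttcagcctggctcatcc
GREM1, 11.0 kb upstream, chr15:32706856-32707002: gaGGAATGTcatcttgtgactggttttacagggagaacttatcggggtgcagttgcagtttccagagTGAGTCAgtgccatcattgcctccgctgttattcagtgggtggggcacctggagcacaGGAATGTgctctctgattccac
NOG, 5.0 kb downstream, chr17:56598656-56598714: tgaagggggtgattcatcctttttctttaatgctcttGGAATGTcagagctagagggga
BAMBI, 42.4 kb downstream, chr10:28719903-28719967: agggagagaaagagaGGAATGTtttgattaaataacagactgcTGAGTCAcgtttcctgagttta

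Upstream and downstream are given along the direction of transcription, from the nearest TSS of the gene to the summit. The 10 peaks held 11 TEAD motifs, since the GREM1 peak at 11.0 kb had 2 of them, both on the minus strand, with their centres 123 bp apart. Read on its own strand, the motif was followed by T in 7 of the 11 cases and by A in 4. Over the whole list 82.5% of 5279 motifs near summits were followed by A or T. In 10 of the 11 cases the motif was centred no more than 40 bp from the summit, the exception being the outer motif of that GREM1 peak at 95 bp. Over the whole list this share was 80.9%.

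TEAD4 peaks were found by this rule at 8 of the 10 genes, where 56.2% of all protein-coding genes had one. Their number differed widely, from 8 at BMP4 and 6 at GREM1 to a single peak at each of BMP6, INHBB, NOG and BAMBI and none at BMP2 and INHBA. FSTL1 had 4 peaks and FST had 2. The median was 1.0 peak per gene for the listed genes and 1.0 for all protein-coding genes, and the means were 2.4 and 1.44. Only 2.07% of protein-coding genes had 8 or more peaks, and 4.67% had 6 or more. All of these counts include peaks that overlap each other. With overlapping peaks merged, BMP4 had 7 and GREM1 had 4, and the listed genes together had 21 in place of 24. Shares of all protein-coding genes were not computed after merging. The searched stretch grows with the length of a gene and the spread of its TSSs, so numbers are also given per length. BMP4 had 7.48 peaks per 100 kb searched, more than 99.7% of protein-coding genes, and GREM1 had 5.97, more than 99.2%. FSTL1 followed with 2.67 and FST with 1.93. The 3 genes INHBB, NOG and BAMBI had 1.0 each, near the 0.94 found over the stretches of all protein-coding genes, and BMP6 had 0.49, over a searched stretch of 205.6 kb that includes its whole gene body.

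**Figure D1:**
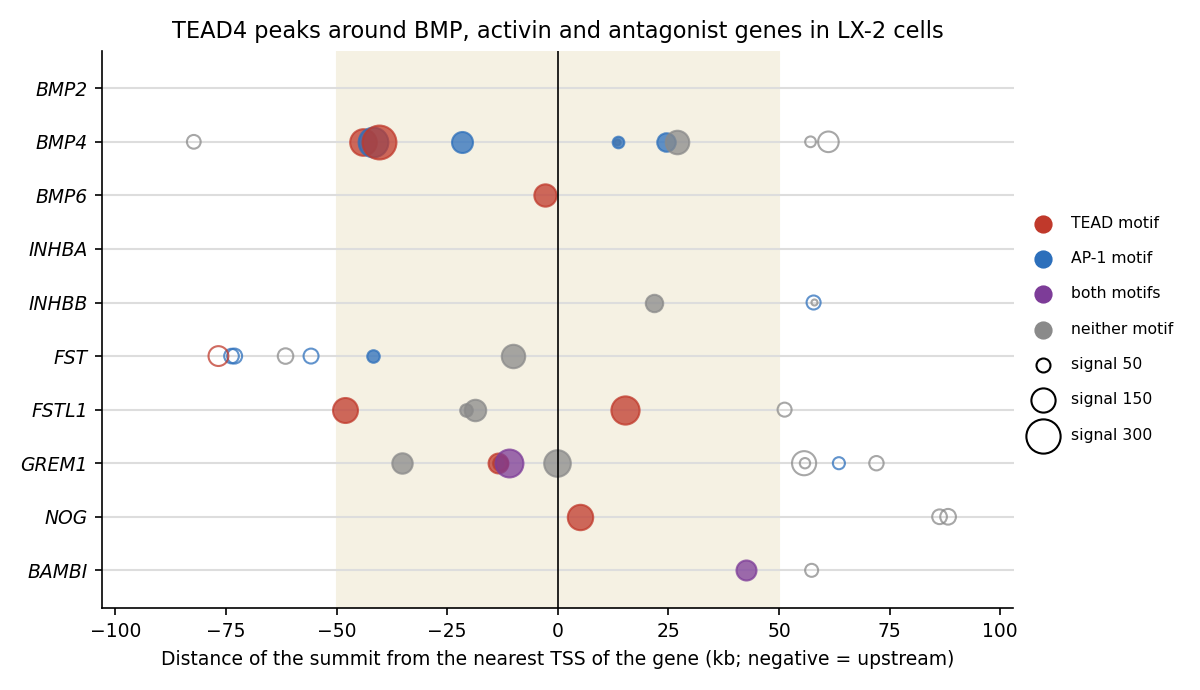
Position of each TEAD4 peak along the 10 genes, as distance of the summit from the nearest TSS in kb (negative values are upstream), with the circle area proportional to the signal value and the colour giving the motif within 100 bp of the summit. Filled circles lie within 50 kb (shaded), open circles between 50 and 100 kb. BMP2 and INHBA have no circle, and most filled circles lie more than 10 kb from the TSS.

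**Figure D2:**
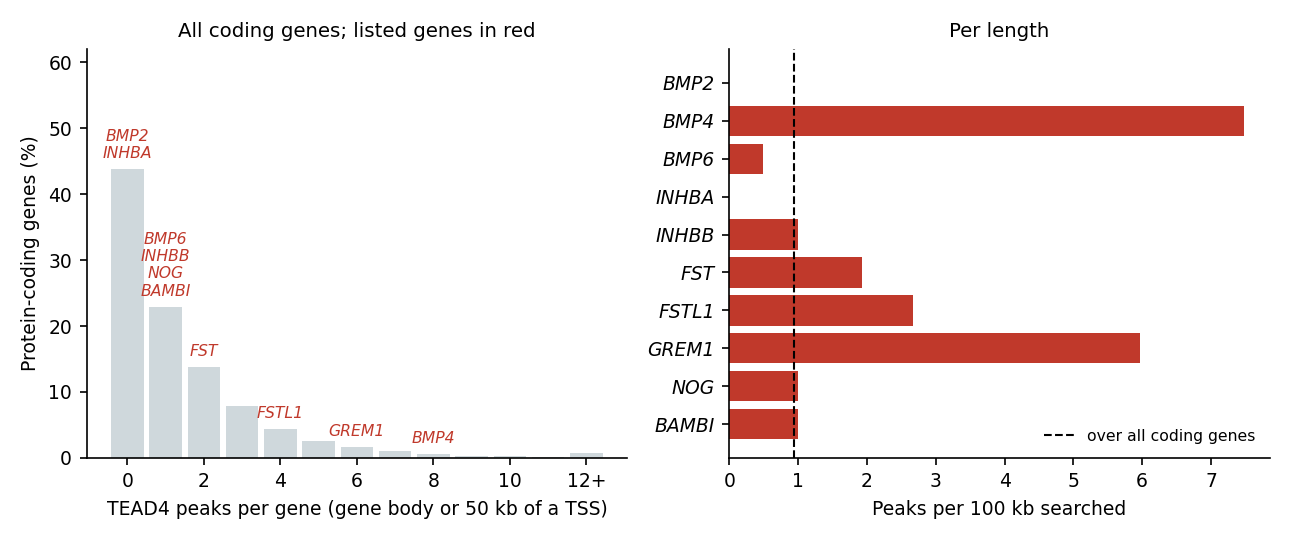
Left, share of protein-coding genes (%) by number of TEAD4 peaks in the gene body or within 50 kb of a TSS, with the listed genes named above their number. Right, peaks per 100 kb searched for each listed gene, with the value over all protein-coding genes as a dashed line at 0.94; BMP4 (7.48) and GREM1 (5.97) stand far to the right of it.

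Most of the peaks lay away from promoters, as did most peaks of the whole list. A summit within 2.5 kb of a TSS was found at GREM1 only, 1 of the 10 genes, near the 16.7% of all protein-coding genes. Of the 24 peaks, 2 (8.3%) were within 2.5 kb of the TSS of any protein-coding gene, against 18.9% of all peaks. Of the 24 summits, 21 were more than 10 kb from the nearest TSS of their gene, and 16 were upstream and 8 downstream. From the TSS of any protein-coding gene, 20 (83.3%) were more than 10 kb away, against 63.6% of all peaks. Outside every annotated protein-coding or lncRNA gene, called intergenic below, lay 18 summits (75%), against 31.5% of all peaks. Other gene types were not considered. A single summit lay inside the body of a listed gene, in an intron of FSTL1. The listed gene had the nearest protein-coding TSS for 23 of the 24 peaks. For all pairs of a protein-coding gene and a peak formed by the same rule, this share was 54.7%. The listed genes have few coding neighbours: the nearest TSS of another protein-coding gene was between 33.6 kb away, for GREM1, and 644.5 kb, for BMP2, with a median of 114.0 kb, against a median of 18.3 kb over all protein-coding genes.

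Among the ligands, BMP4 held the largest number of peaks and the strongest one. BMP4 (ENSG00000125378, chr14:53949736-53958761, minus strand) encodes a ligand that patterns mesenchyme during development. A group of 3 intergenic peaks lay far upstream of it. Their signal values were 293.9 at 40.5 kb (chr14:53999055-53999463), 226.4 at 41.7 kb (chr14:54000303-54000563) and 181.5 at 44.1 kb (chr14:54002742-54002994). The first of these was above 96.2% of all peaks in the list, and the TEAD motif was present in the first and the third. The middle one had an AP-1 motif instead, the site of the FOS and JUN family of factors, 48 bp from its summit, together with an E-box (CAGATG). Nearer to the gene, a peak 21.6 kb upstream had a signal value of 112.9, with an AP-1 motif 15 bp from the summit.

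Downstream of BMP4 there were 4 further peaks, none with the TEAD motif. The peaks at 27.0 kb and 24.5 kb had signal values of 141.9 and 87.5, and the first of them held the only RUNX motif (TGTGGTT) among the 24 peaks. The remaining pair overlapped each other at 13.5 and 13.3 kb and was weak, with signal values of 34.5 and 9.7. Both had an IDR score of 866, where 1000 is the highest score and marks peaks whose ranks repeat best between replicates. The weaker one was the single peak of the 24 with a q-value above 0.05, a feature shared by 674 peaks of the list. No summit lay within 10 kb of a BMP4 TSS. Of the 8 peaks, 2 had the TEAD motif, 4 had the AP-1 motif and none had both.

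BMP6 and BMP2 differed from BMP4. BMP6 (ENSG00000153162, chr6:7726099-7881728, plus strand), known in the liver as an inducer of the iron hormone hepcidin, had a single peak 2.9 kb upstream of its TSS (chr6:7723110-7723333). Its signal value was 127.5, above 79.5% of all peaks, and the centre of its TEAD motif was 15 bp from the summit. BMP2 (ENSG00000125845, chr20:6767686-6780246, plus strand), a close relative of BMP4 known for inducing bone, had no peak within 50 kb nor within 500 kb. Its nearest peak lay 904.3 kb upstream, closer to a TSS of CHGB, and only 1.51% of protein-coding genes had their nearest peak farther away.

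By the rule, the activin subunit genes INHBA and INHBB had 0 peaks and 1 peak. The median over all protein-coding genes was 1.0, and 43.8% of them had none. INHBA (ENSG00000122641, chr7:41667168-41705834, minus strand), whose product dimerises to activin A, had no peak by the rule. Its nearest summits were 112.1 and 112.4 kb away in overlapping peaks with signal values of 8.4 and 103.1, and 25.53% of protein-coding genes had their nearest peak farther away. INHBB (ENSG00000163083, chr2:120346136-120351803, plus strand), which encodes the subunit of activin B, had a single intergenic peak 21.7 kb downstream (chr2:120367805-120367938). Its signal value of 77.7 was above 57.5% of all peaks, and neither TEAD nor AP-1 motif was present near its summit.

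GREM1 was the gene with a promoter peak. GREM1 (ENSG00000166923, chr15:32718004-32745106, plus strand) encodes the BMP antagonist gremlin 1, whose expression is known in activated fibroblasts. The promoter peak (chr15:32717628-32717889) had its summit 249 bp upstream of a TSS, in an exon of the antisense lncRNA gene GREM1-AS1, and a signal value of 181.8, above 88.9% of all peaks. ChIP-seq does not record strand, so the peak cannot be assigned to GREM1 or to GREM1-AS1. It did not hold the 7-letter TEAD motif but held its core CATTCC, which is part of ACATTCC, at 2 places, shown here in capitals because they are the closest matches under the only promoter peak.
GREM1 promoter, chr15:32717658-32717772: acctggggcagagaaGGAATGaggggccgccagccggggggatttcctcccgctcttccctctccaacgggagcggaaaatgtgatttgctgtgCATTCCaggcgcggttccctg

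The second of these cores was centred 0.5 bp from the summit and the first 79.5 bp from it. Such cores are common: CATTCC was found near 46.8% of all summits in the list. This sequence was chosen for display after its values were seen.

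Upstream of GREM1, a peak at 11.0 kb (chr15:32706753-32707118) had the highest signal value at this gene, 199.0, with 2 TEAD motifs and an AP-1 motif between them. Of all peaks in the list, 1.81% had 2 or more TEAD motifs. Around 13 kb upstream, 3 summits stood within one run of overlapping peaks, with signal values of 100.9, 27.0 and 56.5, the first and the third with a TEAD motif. The remaining peak, 35.3 kb upstream with a signal value of 106.8, lay in an intron of the neighbouring gene SCG5, 1713 bp from a TSS of that gene, and was the only one of the 24 nearer to another coding gene.

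Peaks at the follistatin genes were intergenic or intronic. FSTL1 (ENSG00000163430, chr3:120392293-120451016, minus strand) had 4 peaks. The strongest, with a signal value of 203.9, lay in its own intron 15.2 kb downstream of a TSS (chr3:120435581-120435887). The other 3 were upstream, in introns of the lncRNA gene ENSG00000286735, with signal values of 118.0 at 18.7 kb, 40.9 at 20.8 kb and 159.9 at 48.1 kb. The intronic peak and the most distant one had the TEAD motif, and the other two had the core only. FST (ENSG00000134363, chr5:53480626-53487134, plus strand) had 2 upstream peaks, with signal values of 140.8 at 10.1 kb (chr5:53470384-53470603) and 40.3 at 41.7 kb. Neither held the TEAD motif, but both had its core CATTCC centred 4.5 bp from the summit, and the weaker peak also had an AP-1 motif 5 bp from it.

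NOG and BAMBI each had 1 peak, on the downstream side. NOG (ENSG00000183691, chr17:56593699-56595611, plus strand) had a peak 5.0 kb from its TSS (chr17:56598560-56598812) with a signal value of 165.3, above 86.8% of all peaks, and a TEAD motif 25 bp from the summit. BAMBI (ENSG00000095739, chr10:28677510-28682932, plus strand) had a peak at 42.4 kb (chr10:28719831-28720027) with a signal value of 102.4. There the AP-1 motif was centred on the summit, 0.0 bp away, and the TEAD motif was 28 bp from it. Only this peak and the GREM1 peak at 11.0 kb had both motifs.

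The signal values of the 24 peaks ran from 9.7 to 293.9 with a median of 115.5, where the list had a median of 68.1 and ran from 6.6 to 1074.4. Of the 24 peaks, 18 were above the median of the list, and 21 (87.5%) had the highest IDR score, against 76.1% of all peaks. Peaks with the TEAD motif had a median signal of 162.6 and a range of 56.5 to 293.9, and those without it had a median of 97.1 and a range of 9.7 to 226.4, so the ranges overlapped. The medians over the whole list were 82.2 and 64.6. These are values of single peaks at 8 loci in one combined list, and no test was made of them.

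The TEAD motif was present in 41.7% of the 24 peaks (10 peaks, Wilson 95% interval 24.5 to 61.2%) and in 23.0% of all peaks. The interval covers counting error only and treats peaks of one gene as independent, which they are not. Leaving out each of the 8 genes with a peak in turn gave shares from 38.9% without GREM1 (7 of 18 peaks, interval 20.3 to 61.4%) to 8 of 16 peaks without BMP4 (interval 28.0 to 72.0%). The interval included the 23.0% of all peaks when GREM1, FSTL1, BMP6, NOG or BAMBI was left out, and not when BMP4, FST or INHBB was. AP-1 motifs, TGAGTCA and its reverse complement TGACTCA, were present in 29.2% (interval 14.9 to 49.2%) against 25.4% of all peaks. Leaving out 1 gene gave AP-1 shares from 18.8% without BMP4 (3 of 16 peaks, interval 6.6 to 43.0%) to 35.0% without FSTL1 (interval 18.1 to 56.7%). Each of these intervals included the 25.4%. The E-box, counted only as CAGATG, was found in 16.7% of the 24 peaks and 16.7% of all peaks, and the RUNX motif in 4.2% (1 peak) and 9.53%. The TEAD motif read backwards (CCTTACA), a control of equal composition, was found in 0 of the 24 peaks, which allows a share of up to 13.8% (Wilson upper bound), and in 2.00% of all peaks. For AP-1, E-box, RUNX and the control, the share of the whole list lay inside the interval of the 24 peaks. For TEAD it lay just below the interval of all 24 peaks, a position that was lost on leaving out any one of those 5 genes.

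**Figure D3:**
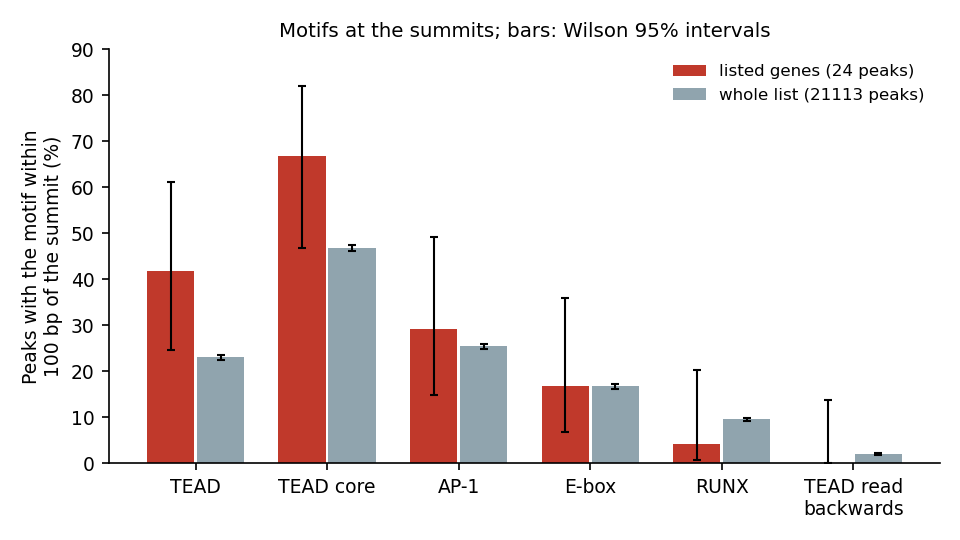
Share of peaks (%) with each motif within 100 bp of the summit, for the 24 peaks of the listed genes and for all 21113 peaks, with Wilson 95% intervals as error bars. The E-box was counted only as CAGATG. The interval of the 24 peaks for the TEAD motif (24.5 to 61.2%) begins above the 23.0% of the whole list but includes it when any one of GREM1, FSTL1, BMP6, NOG or BAMBI is left out, and those for AP-1, E-box, RUNX and the backwards motif include the value of the whole list.

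These values depended on the limit of 50 kb. The nearest summit inside it was that of the FSTL1 peak at 48.1 kb, with a signal value of 159.9. The nearest one outside was also by FSTL1, at 51.3 kb with a signal value of 50.2, and lay 398 bp from a TSS of LRRC58. Between 50 and 100 kb there were 18 peaks at 7 of the genes, with a median signal of 53.9 (range 9.3 to 148.8). The listed gene had the nearest coding TSS for 16 of them. The TEAD motif was present in 1 of the 18 (5.6%, interval 1.0 to 25.8%), a peak 76.7 kb upstream of FST with a signal value of 100.9, and the AP-1 motif in 5. With a limit of 100 kb, the share with the TEAD motif was 26.2% of 42 peaks and the median signal was 70.3, both close to the whole list. Over all peaks, the share with the TEAD motif was 22.8% up to 50 kb from a coding TSS and 23.9% between 50 and 100 kb.

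The other genes of the pathway gave a wider view. By the same rule, 33 of 56 further BMP and activin pathway genes had a peak (58.9%, Wilson 95% interval 45.9 to 70.8%), against 56.2% of all protein-coding genes, and 8 had one within 2.5 kb of a TSS (14.3%, against 16.7%). Both shares were near those of all genes. By role, 10 of 19 ligand genes, 2 of 9 receptor genes, 4 of 5 co-receptor genes, 9 of 15 antagonist genes and 8 of 8 target genes had a peak. Some of these counts rest on peaks nearer to a neighbour. GDF5, GDF11, INHA, INHBC, INHBE, NODAL, CHRD, KCP and HAMP were not the nearest coding gene for any of their peaks. The single INHBE peak was also counted at INHBC.

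None of the 19 further ligand genes had a peak within 2.5 kb of a TSS. BMP10, a ligand of the heart and circulation, had 4 peaks, BMP5 had 3, and BMP7, GDF6 and INHBC had 2 each. The nearer INHBC peak, 3.7 kb upstream, was closer to a TSS of R3HDM2. Among receptors only ACVR1, a type I receptor, with 3 peaks, and BMPR1A, another type I receptor, with 1 peak, had any, while the type II receptor genes BMPR2, ACVR2A and ACVR2B had none. One of the ACVR1 peaks covered a TSS, and the strongest had a signal value of 180.7. Among co-receptors, TGFBR3 (betaglycan) had 4 peaks, ENG (endoglin) had 3 and RGMB had 2, one of them with a signal value of 292.8 at 5162 bp upstream.

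Among the antagonists, CRIM1, a transmembrane protein with cysteine-rich repeats that binds BMPs, had 24 peaks, equal to the number at all 10 listed genes together. Its strongest signal value was 452.7, and it had 9.31 peaks per 100 kb searched. BMPER had 6 peaks, 5 of them with the AP-1 motif, and CHRDL2 had 3. The nearest CHRDL2 peak, 23.6 kb upstream, was closer to a TSS of RNF169. FSTL3, a relative of follistatin, had 2 peaks, both within 2.5 kb of a TSS and one of them covering it. All 8 target genes, which BMP signalling is known to induce, had a peak, although the single one at HAMP was nearer to a TSS of USF2. SMAD7 and SMAD6, inhibitory SMADs that act inside the cell, had 9 and 7, and ATOH8 had 7. At SMAD7, 4 peaks lay within 2.5 kb of a TSS and 3 covered one, with a highest signal value of 377.7.

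**Figure D4:**
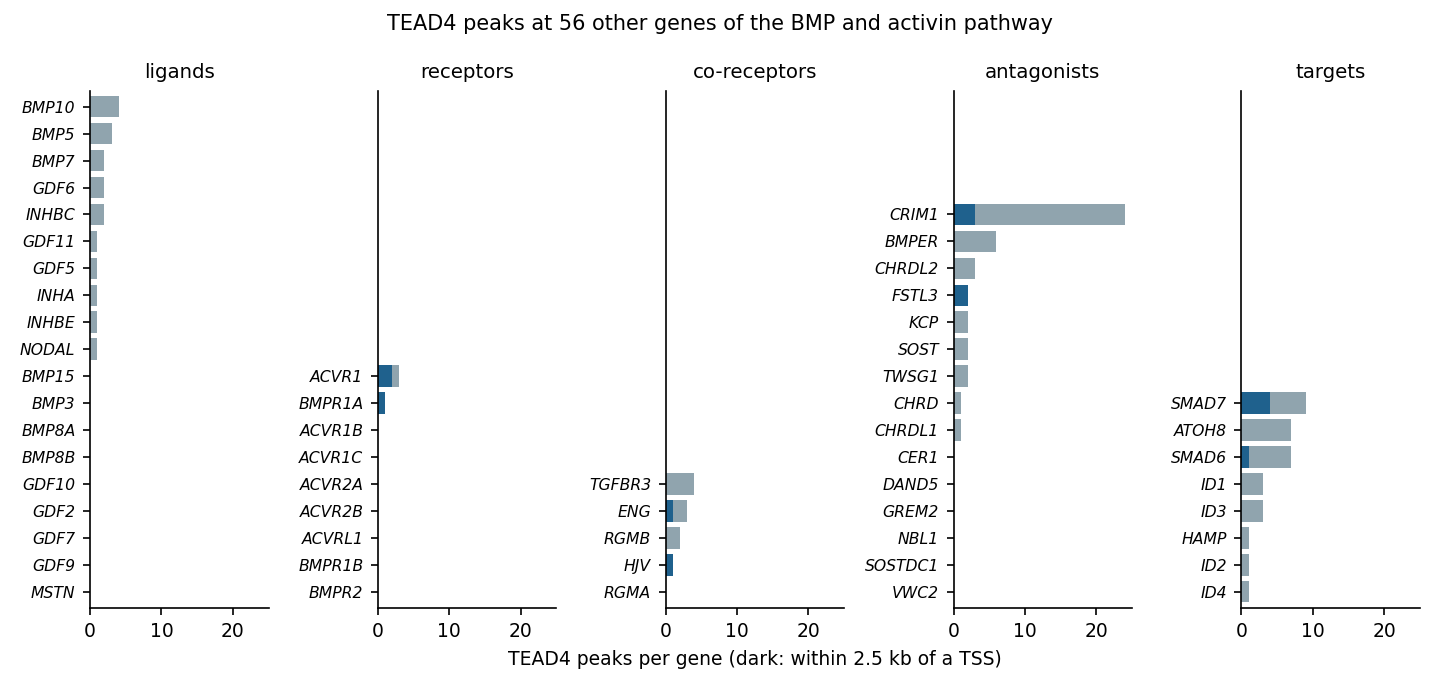
Number of TEAD4 peaks in the gene body or within 50 kb of a TSS for 56 other genes of the pathway, grouped by role, with the peaks within 2.5 kb of a TSS in dark blue. CRIM1 has the longest bar (24 peaks), all 8 targets have a bar, and 7 of 9 receptors have none.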

How the data were processed

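ChIP was performed on LX-2 chromatin with an anti-TEAD4 antibody. Reads were mapped to hg38 with Chromap and the ENCODE IDR pipeline was run on replicates 1 and 3. The authors left out replicate 2 because only the other replicates agreed well enough by IDR, so the scores come from a pair chosen for its concordance. In the list the authors deposited, each peak has a score scaled from its IDR, the signal is the value given by a peak caller that the study's text does not name, and the −log10 q-value is given per peak. Replicates are combined in it, so replicates were not compared and depth per sample is unknown. All 21113 peaks lay inside hg38 chromosome ends. TSSs came from GENCODE release 44, for 20007 protein-coding gene symbols. All 10 listed and 56 pathway genes matched. Summits were assigned to genes, motifs were searched on both strands, and peaks sharing at least 1 bp were merged in one alternative. Percentiles are shares of genes or peaks with a lower value. No test was run: values stand beside those of all genes or peaks. The listed genes, the pathway list and the display rules were chosen with earlier results of these data known. Named in full were all listed genes, the 3 pathway genes with most peaks per role (with ties) and those with a peak covering a TSS. Pathway genes that were never the nearest coding gene of their peaks were named as well. The code was tested on simulated data. Python 3.11.15, pysam 0.24.0, pandas 2.3.3, scipy 1.17.1 and matplotlib 3.10.9 were used.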

Additional observations from a re-analysis of the deposited data

How the results depend on the processing

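No paired analysis was possible because replicate values are merged in the peak list, so leaving out single replicates could not be done either. Of 150 values under alternatives (137 planned, 13 added after the data were seen), 127 stayed within 1.5 times the count or inside the interval of the value reported. With 10 kb in place of 50 kb, 4 of the 10 listed genes remained, with 4 peaks (median signal 173.6, TEAD motif 75.0%, AP-1 motif 0.0%). Of the 56 other pathway genes, 19 had a peak. Both counts fell by construction of a shorter search, and 34.0% of all protein-coding genes had a peak by it. With 100 kb there were 42 peaks at 8 listed genes, with a median signal of 70.3, and 72.0% of all protein-coding genes had a peak. Assigning each peak to the nearest coding TSS at any distance gave 54 peaks at 9 genes, where 63.9% of all protein-coding genes had none. A promoter distance of 5 kb gave 3 genes, for which no share over all genes was computed. The shorter motif CATTCC gave 66.7%, against 46.8% of all peaks. For single genes, 12 of 80 values moved by more than 1.5 times, 11 of them with the distance.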

Other observations

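When each peak was given to the gene with the nearest coding TSS at any distance, a choice made after the data were seen, BMP4 had 16 peaks, FST 10, GREM1 8, INHBB 5, FSTL1 4, BAMBI 4, NOG 3, INHBA 3, BMP6 1 and BMP2 0. For FST, which had 2 peaks within 50 kb, this number was above that of 98.2% of protein-coding genes, and for BMP4 above 99.5%. Such a count covers a longer stretch where other coding genes are far away. The nearest TSS of another coding gene was 440.0 kb away for BMP4 and 80.0 kb for FST, against a median of 18.3 kb. No value per length was computed for this count. Within 500 kb of a TSS, the number of summits was 31 for BMP4, 20 for GREM1, 17 for INHBB and 16 for FST. It was 13 for BAMBI, 12 for NOG, 11 each for INHBA and FSTL1, and 7 for BMP6. BMP2 had 0, a state shared by 3.51% of protein-coding genes (702 genes). For the other counts within 500 kb, no share over all genes was computed. Within 100 kb, 7 summits lay around FST and 10 around GREM1, the latter including 4 that lay downstream, of which 3 were in introns and 1 in a UTR of FMN1, with signal values from 27.4 to 148.8. The promoters of the listed genes, read 500 bp to either side of the main TSS, had an observed to expected CpG ratio between 0.18, for INHBA, and 1.05, for BMP2, the only listed genes without a peak. The GREM1 promoter had a ratio of 0.92.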
